A study of Mus musculus with 7 samples.

Results

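The FGF23, PTH and vitamin D axis was examined in RNA-seq of marrow-flushed femoral cortical bone through 10 genes that were taken by symbol from the 27179 genes counted. The 10 genes were Fgf23, Phex, Galnt3, Fam20c, Fgfr1, Pthlh, Pth1r, Gnas, Vdr and Cyp24a1. The femora came from 12-week-old female mice on a C57BL/6 background, 3 labelled Dmp1Cre.Efnb2f/f and 4 Dmp1Cre controls with unfloxed Efnb2. All 7 mice carried Dmp1Cre, in which a 10-kb stretch of the Dmp1 promoter drives Cre recombinase in late osteoblasts and osteocytes. The other cells of whole bone were not its intended target, and whether Cre acted in them was not tested here. Efnb2 is the gene for the membrane ligand EphrinB2. Total counts ranged from 17245556 to 22075778 per library, and values are given as CPM, counts scaled to a common library size, after TMM normalization. RPKM, which also divides by gene length, was used wherever the levels of different genes were compared.

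FGF23 is a hormone made by osteocytes that lowers phosphate reabsorption and the synthesis of active vitamin D in the kidney. Parathyroid hormone (PTH) and the locally made PTH-related protein (PTHrP) act on one receptor, which signals through the stimulatory G protein and cyclic AMP. Active vitamin D binds a nuclear receptor that pairs with a retinoid X receptor on DNA and switches on, among others, the enzyme that degrades it. The comparison asked whether transcripts of these 3 hormone systems differed between bones of the 2 genotypes, where Efnb2, a gene known to respond to PTH and PTHrP, was to be removed from the osteocyte lineage.

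Whole-gene counts of the targeted gene did not follow the labels. Efnb2 stood at 17.9, 13.1 and 11.8 CPM in replicates 1, 2 and 3 labelled Dmp1Cre.Efnb2f/f, against 8.50, 7.93, 6.44 and 6.36 CPM in controls 1, 2, 3 and 4. Each library labelled as deficient was above each control, with a log2 fold change of 0.96 ± 0.21 (SE, n = 3 and 4), an adjusted p of 0.51 by edgeR's quasi-likelihood test and p = 0.02857 by an exact permutation test, the smallest that 3 against 4 libraries allow. A count per gene does not show which exons were read. By PCR of the targeted region in osteocytes sorted from other mice, the paper reported effective Efnb2 targeting in Dmp1Cre.Efnb2f/f. It reported that non-osteocytic cells retained Efnb2. The counts here cover the whole gene in whole bone. Controls 1 and 4 stood apart from the other 5 libraries on the first principal component, which held 56% of the variance. Skeletal muscle markers had a positive log2 fold change in 7 of 7 genes (summed CPM 25030 to 38390 in the Dmp1Cre.Efnb2f/f-labelled libraries, 11620 to 26660 in controls) and erythroid markers a negative one in 7 of 7 (8975 to 17560 against 19940 to 56470). Granulocyte markers were negative in 8 of 8 genes (12590 to 15770 against 17980 to 21120 CPM) and endothelial markers positive in 5 of 5 (374 to 450.4 against 288.5 to 377.2 CPM). The osteocyte genes Dmp1 and Sost were detected in every library (56.4 to 233.6 and 25.5 to 164.2 CPM), and the summed osteocyte markers overlapped, at 188.2 to 376 CPM in the Dmp1Cre.Efnb2f/f-labelled libraries and 107.6 to 516.9 CPM in controls. The summed osteoblast, osteoclast, chondrocyte, B-lineage and adipocyte markers overlapped as well. In whole bone, fewer cells of a type and less RNA per cell cannot be told apart.

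None of the 10 genes passed the edgeR or the exact permutation test of the difference between genotypes, and in each the groups overlapped. Of these, 9 passed the filter of 0.65 CPM in at least 3 libraries, and Cyp24a1 did not. With edgeR's quasi-likelihood test, p adjusted over 15074 genes by the Benjamini-Hochberg method, 0 of 9 had an adjusted p under 0.05, as had 0% of all genes tested, and 0 of 9 had an unadjusted p under 0.05, against 9.67% of all genes tested. The 2 groups overlapped in each of the 9, while they did not overlap in 11.3% of the genes tested (5.03% higher and 6.3% lower in the Dmp1Cre.Efnb2f/f-labelled libraries). The log2 fold changes were above 0 for 5 genes and below 0 for 4, with adjusted p between 0.5497 and 0.9409. DESeq2 likewise called 0 of 9, beside 0.478% of all genes tested. Limma with quantile normalization and sample weights, the study's pipeline without its day term, called 2 of 9, beside 15.1% of all genes tested. The 2 were Galnt3 and Fgfr1. The submitters describe the samples as bone of 3 and 4 mice, and some share a parental cross.

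**Figure D1:**
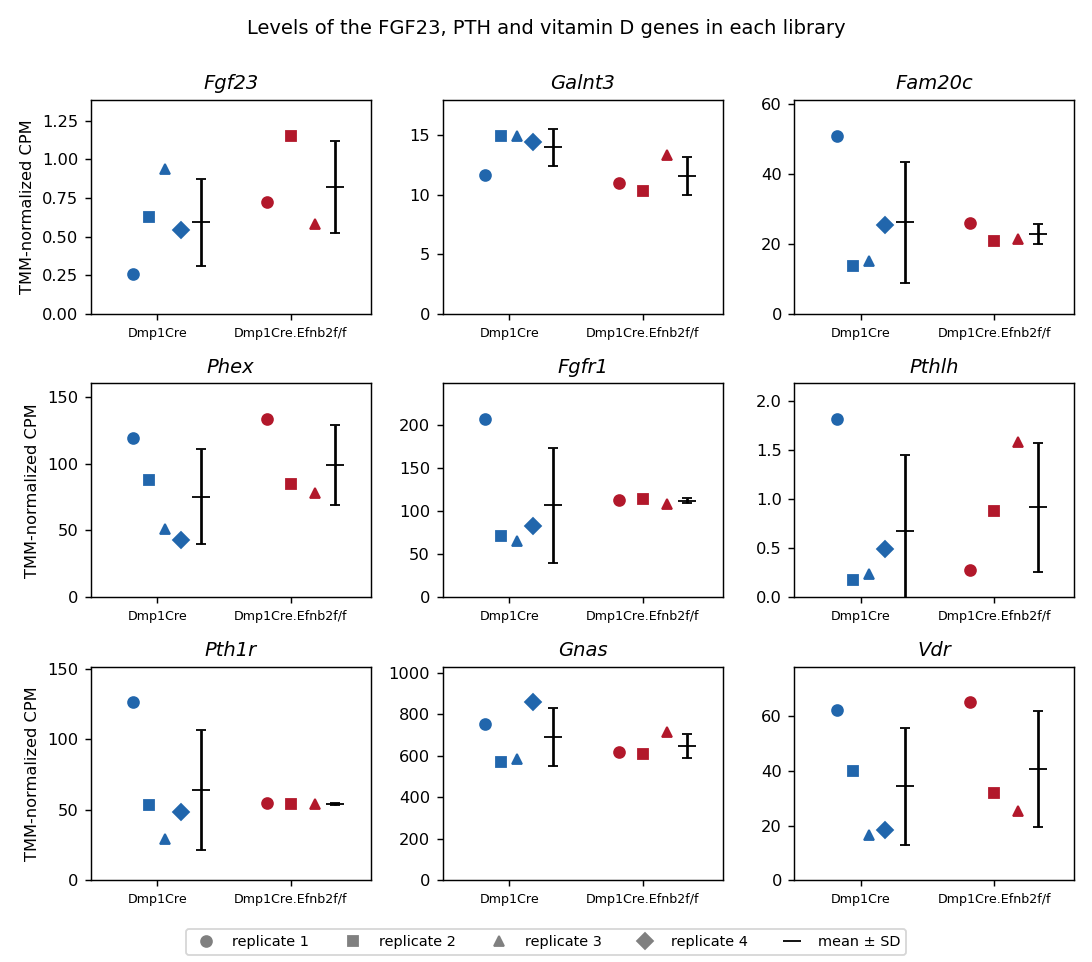
TMM-normalized CPM (linear axes from 0) of the 9 genes that passed the filter, with 1 point per library, symbols for the replicate number, and the mean ± SD beside each group of 4 Dmp1Cre and 3 Dmp1Cre.Efnb2f/f libraries. Control 1 (blue circle) is the highest control for Fam20c, Phex, Fgfr1, Pthlh, Pth1r and Vdr and the lowest for Fgf23 and Galnt3, and the groups overlap in every panel; the lower SD bar of Pthlh in the controls ends at the axis.

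Promoter sequence is shown for Fgf23, the hormone gene of the set, and for Phex and Vdr, which followed each other most closely across the libraries. Each is the 250 bases before the annotated transcription start (RefSeq, GRCm38.p6, the build of mm10), read 5′ to 3′ on the strand of the gene, with TGACG in capitals and likewise TTTAAA and GGGCGG. The letters TGACG are the core of the cyclic AMP response element TGACGTCA, TTTAAA resembles a TATA box, and GGGCGG is the GC box bound by Sp1. The windows lie at chr6:127072652-127072901 (plus strand) for Fgf23, chrX:157415287-157415536 (minus strand) for Phex and chr15:97908297-97908546 (minus strand) for Vdr.
Fgf23: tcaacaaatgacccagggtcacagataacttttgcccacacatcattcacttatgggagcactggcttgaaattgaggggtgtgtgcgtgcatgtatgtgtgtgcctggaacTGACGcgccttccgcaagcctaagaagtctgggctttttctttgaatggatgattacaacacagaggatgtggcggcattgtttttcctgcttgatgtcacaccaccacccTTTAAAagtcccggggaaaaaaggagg
Phex: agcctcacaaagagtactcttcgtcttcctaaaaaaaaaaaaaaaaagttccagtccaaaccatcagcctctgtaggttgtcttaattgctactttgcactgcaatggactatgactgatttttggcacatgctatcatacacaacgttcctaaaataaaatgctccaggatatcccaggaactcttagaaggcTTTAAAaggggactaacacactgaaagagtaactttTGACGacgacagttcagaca
Vdr: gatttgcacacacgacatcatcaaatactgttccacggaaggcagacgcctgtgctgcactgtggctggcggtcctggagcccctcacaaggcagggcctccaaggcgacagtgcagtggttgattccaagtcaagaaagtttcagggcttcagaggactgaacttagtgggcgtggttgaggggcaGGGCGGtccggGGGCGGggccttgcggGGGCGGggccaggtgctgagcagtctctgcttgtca
Both the Fgf23 and the Phex window held a TGACG, 138 and 20 bases before the start, and a TTTAAA, 27 and 56 bases before it. On either strand, 17.8% of 32851 RefSeq windows of 250 bases hold TGACG, 12.1% hold TTTAAA and 1.62% hold both. The Vdr window held neither and had 3 GGGCGG, at 63, 52 and 36 bases before the start, a motif found in 32.7% of all windows. The G+C content was 48.4% for Fgf23, 39.2% for Phex and 61.2% for Vdr, with a median of 52.4% over all windows. TGACGTCA and AGGTCA, the latter one form of the hexamer of vitamin D response elements, were searched on both strands as well. They occurred in no window of the 8 genes of the axis that had one (1.55% and 14% of all windows hold them). Other forms of the hexamer were not searched. No window was used here for Fgfr1 and Cyp24a1. These matches describe letters only.

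Fgf23 mRNA was close to the detection limit in these bones. The counts were 13, 21 and 11 in replicates 1, 2 and 3 labelled Dmp1Cre.Efnb2f/f, and 5, 11, 16 and 10 in controls 1, 2, 3 and 4, which is 0.723, 1.15 and 0.580 CPM against 0.259, 0.628, 0.937 and 0.544 CPM. The highest value was that of replicate 2 labelled Dmp1Cre.Efnb2f/f and the lowest that of control 1, and the other 5 libraries of both genotypes interleaved. Exactly 3 libraries reached 0.65 CPM, so the gene only just entered the test. The group means were 0.819 ± 0.298 CPM (SD, n = 3) and, in controls, 0.592 ± 0.279 CPM (SD, n = 4). The log2 fold change was 0.47 with a 95% confidence interval from -0.56 to 1.51 (adjusted p = 0.6527, edgeR). An interval of this width holds both a fall and a rise of the transcript. The gene (chr6:127072902-127082296, mm10) shares no exon base with another annotated gene.

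The 3 genes whose products act on FGF23 protein or its abundance did not pass the edgeR test either. Phex (chrX:157162075-157415286), an endopeptidase of osteoblasts and osteocytes whose loss raises FGF23 and causes X-linked hypophosphatemia, stood at 133.3, 85.0 and 78.1 CPM in replicates 1, 2 and 3 labelled Dmp1Cre.Efnb2f/f and at 119.5, 87.9, 50.7 and 42.5 CPM in controls 1, 2, 3 and 4. Replicate 1 labelled Dmp1Cre.Efnb2f/f and control 1 were high together, and controls 3 and 4 were low. This gave a log2 fold change of 0.39 ± 0.37 (SE; adjusted p = 0.6442, edgeR), which was 0.12 without replicate 1 labelled Dmp1Cre.Efnb2f/f, 0.20 without control 4 and 0.71 without control 1.

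Galnt3 (chr2:66082766-66125056) encodes the glycosyltransferase that adds O-linked sugar to FGF23 and thereby shields it from cleavage by furin-type convertases. It stood at 11.0, 10.3 and 13.3 CPM in the Dmp1Cre.Efnb2f/f-labelled libraries and at 11.7, 15.0, 14.9 and 14.4 CPM in the controls. Controls 2, 3 and 4 lay within 1 CPM of each other and above all 3 libraries labelled Dmp1Cre.Efnb2f/f, and only control 1 fell among the latter. On the log2 scale the fold change was -0.28 (95% confidence interval -0.69 to 0.14), and its exact permutation p of 0.1143 was the lowest of the 9 genes, of which the smallest possible is 0.0286. In limma with quantile normalization and sample weights it was -0.58 (adjusted p = 0.016), with controls 1 and 4 weighted least. Its coefficient of variation over the 7 libraries, 14.9%, was the lowest of the set.

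Fam20c (chr5:138755081-138810063), the secretory-pathway kinase that phosphorylates FGF23 and favours its cleavage, stood at 26.0, 20.8 and 21.3 CPM in the Dmp1Cre.Efnb2f/f-labelled libraries and at 50.9, 13.6, 15.1 and 25.3 CPM in the controls. The former lay close together, inside the range of the latter, whose top value came from control 1 alone. The log2 fold change of -0.21 ± 0.43 (SE; adjusted p = 0.8305, edgeR) turned to 0.33 without control 1 (adjusted p = 0.614) and to 0.67 without controls 1 and 4 (adjusted p = 0.133). Its sign also turned in the limma pipeline (0.46) and with the replicate block (0.049).

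Fgfr1 (chr8:25518759-25575718), a receptor for FGF23 that needs the co-receptor Klotho to bind it with high affinity, stood at 112.9, 113.9 and 108.3 CPM in the Dmp1Cre.Efnb2f/f-labelled libraries and at 206.4, 70.6, 65.0 and 82.9 CPM in controls 1, 2, 3 and 4. The first group was tight and lay above controls 2, 3 and 4 and below control 1. Over all 7 libraries the log2 fold change was 0.07 ± 0.39 (SE; adjusted p = 0.9409, edgeR). Without control 1 it was 0.62 (unadjusted p = 0.00525, adjusted p = 0.368), and it turned to -0.08, -0.10 and -0.03 without control 2, 3 or 4. In limma with quantile normalization and sample weights it was 0.69 (adjusted p = 0.0189). Klotho itself (Kl) had 0 to 4 counts per library and did not pass the filter. Of the exon bases of Fgfr1, 1.66% are shared with a predicted gene on the opposite strand.

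Among the PTH genes, the receptor Pth1r (chr9:110722085-110747145) had the most even level within one group and one of the widest spreads in the other. It stood at 55.1, 54.1 and 53.7 CPM in the Dmp1Cre.Efnb2f/f-labelled libraries, a mean of 54.3 ± 0.715 CPM (SD, n = 3), and at 126.1, 53.5, 29.1 and 48.4 CPM in controls 1, 2, 3 and 4, a mean of 64.3 ± 42.5 CPM (SD, n = 4). Control 1 was above all other libraries and control 3 below them. The log2 fold change of -0.24 ± 0.43 (SE; adjusted p = 0.7997, edgeR) became 0.31 without control 1. Of its exon bases, 3.25% lie opposite Myl3, a myosin light chain gene, and whether reads were counted by strand is not given in the sources used here.

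Without control 1, the 2 groups no longer overlapped for 3 of the 9 genes, Fgfr1 and Pth1r being higher and Galnt3 lower in the Dmp1Cre.Efnb2f/f-labelled libraries. The same was true of 10.5% (higher) and 9.12% (lower) of the 15074 genes tested. For Pth1r the groups were barely apart, at 53.7 CPM in replicate 3 labelled Dmp1Cre.Efnb2f/f and 53.5 CPM in control 2. Without control 1 the adjusted p by edgeR was 0.601 for Pth1r, 0.368 for Fgfr1 and 0.474 for Galnt3. Control 1 also had the highest level of the osteocyte markers Dmp1, Mepe and Sost. Its summed osteoblast (71550 CPM), osteoclast (1233 CPM), chondrocyte (1116 CPM) and adipocyte (408.8 CPM) markers were the highest of the 7 libraries as well. The part of any of these markers in these differences between groups was not tested.

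Pthlh (chr6:147252109-147264013), the gene for PTHrP, was the other member with few counts. It had 5, 16 and 30 counts in replicates 1, 2 and 3 labelled Dmp1Cre.Efnb2f/f and 35, 3, 4 and 9 counts in controls 1, 2, 3 and 4, or 0.278, 0.878 and 1.58 CPM against 1.81, 0.171, 0.234 and 0.489 CPM. High and low libraries occurred in both genotypes, a 10.6-fold range over the 7. This left a log2 fold change of 0.41 with a 95% confidence interval from -1.45 to 2.27 (adjusted p = 0.8225, edgeR); with so few counts, a large change in either direction lies within it.

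Gnas (chr2:174284320-174346744), which encodes the stimulatory G protein alpha subunit downstream of Pth1r, was the most abundant member. It stood at 618, 607 and 715 CPM in the Dmp1Cre.Efnb2f/f-labelled libraries and at 751, 569, 585 and 857 CPM in controls 1, 2, 3 and 4. The values of the 2 groups interleaved within a 1.51-fold range. Gnas had a log2 fold change of -0.09 ± 0.22 (SE; adjusted p = 0.8541, edgeR), whose sign changed under 6 of the alternatives. Gnas is an imprinted locus with 4 annotated starts in the promoter table, and 22% of its exon bases lie opposite other genes, the antisense transcript Nespas among them. The counts sum all starts.

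Vdr (chr15:97854427-97908296), the vitamin D receptor, stood at 65.0, 32.0 and 25.4 CPM in the Dmp1Cre.Efnb2f/f-labelled libraries and at 62.2, 40.1, 16.6 and 18.4 CPM in controls 1, 2, 3 and 4. Replicate 1 of each genotype was highest. The group means were 40.8 ± 21.2 CPM (SD, n = 3) and, in controls, 34.3 ± 21.4 CPM (SD, n = 4). The log2 fold change of 0.25 ± 0.50 (SE; adjusted p = 0.8263, edgeR) turned to -0.26 without replicate 1 labelled Dmp1Cre.Efnb2f/f (adjusted p = 0.969).

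Cyp24a1 (chr2:170482957-170497145), the 24-hydroxylase that degrades active vitamin D and a direct target of its receptor, was not measurable. The gene had 4 counts in replicate 1 labelled Dmp1Cre.Efnb2f/f (exact 95% Poisson interval 1.09 to 10.2 counts) and 0 counts in the other 6 libraries, which allows up to 3 counts each, or 0.155 to 0.176 CPM. The interval and the limit cover counting error only. The library with the 4 counts was also the one with the highest Vdr level (65.0 CPM), but control 1, at 62.2 CPM of Vdr, had 0 counts. Of the exon bases of Cyp24a1, 2.33% lie opposite Pfdn4, and a count per gene does not show where the reads lay. No difference between genotypes was detectable at this depth.

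Per gene length, the members had an order of levels in which several neighbours could not be separated. In the controls the mean was 114 ± 22.8 RPKM (SD, n = 4) for Gnas, 23.6 ± 15.6 RPKM for Pth1r, 21.2 ± 13.4 RPKM for Fgfr1, 12.0 ± 5.67 RPKM for Phex, 8.74 ± 5.75 RPKM for Fam20c, 7.89 ± 4.92 RPKM for Vdr and 3.80 ± 0.421 RPKM for Galnt3. Pthlh followed at 0.448 ± 0.509 RPKM and Fgf23 at 0.326 ± 0.154 RPKM. Gnas was above Pth1r in 7 of 7 libraries, Fgfr1 above Phex in 7 of 7, Galnt3 above Pthlh in 7 of 7 and Phex above Fam20c in 6 of 7. Pth1r was above Fgfr1 in 3 of 7, Fam20c above Vdr in 4 of 7 and Pthlh above Fgf23 in 3 of 7, so these pairs had no fixed order. Among the 15074 genes tested, Gnas ranked 461 by its control RPKM and Fgf23 ranked 14555.

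Across the 7 libraries the members did not move as one. Phex and Vdr followed each other, with Pearson's r = 0.958 and Spearman's rho = 0.964 of log2 CPM over 7 libraries (r = 0.967 without controls 3 and 4, the 2 libraries farthest from the median of Phex). Both were highest where Sost, the osteocyte gene for sclerostin, was high, in control 1 and replicate 1 labelled Dmp1Cre.Efnb2f/f (164.2 and 123.7 CPM of Sost, against 25.5 to 54.3 CPM in the other 5). The r of Phex and Vdr without control 1 and replicate 1 labelled Dmp1Cre.Efnb2f/f was not examined, so its dependence on these 2 is not known. Fgfr1, Pth1r and Fam20c formed another pattern, high in control 1 only. Their r with Sost was 0.85, 0.87 and 0.80, beside 0.84 for Phex and 0.93 for Vdr. A relation to this marker was therefore not particular to Phex and Vdr. Without controls 1 and 3, the r of 0.903 between Fgfr1 and Pth1r (rho = 0.929) fell to 0.494. That of 0.912 between Fgfr1 and Fam20c (rho = 0.714) fell to 0.626, and that of 0.837 between Pth1r and Fam20c (rho = 0.679) became -0.248. These r values depended on those libraries to differing degrees. For Phex and Vdr the 2 libraries left out were both low, so the pairs were not examined alike.

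Fgf23 went the other way: it was lowest in control 1, where Dmp1, Mepe and Sost were highest. Its r with the other members that passed the filter was negative for all 8 of them, from -0.143 for Galnt3 to -0.745 for Pth1r, over the same 7 libraries, which differed in their RNA composition. With 5 to 21 counts, the values of Fgf23 carry large counting error.

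**Figure D2:**
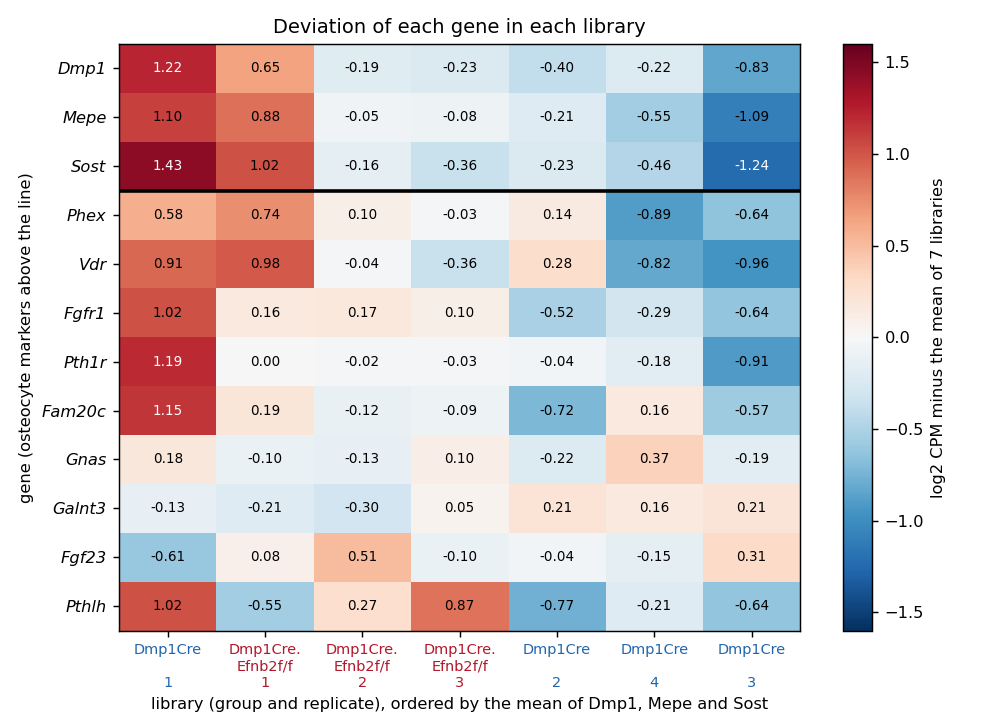
Deviation of log2 CPM from the mean of the 7 libraries for 3 osteocyte markers (above the line) and the 9 members that passed the filter, with libraries ordered from left to right by the markers and labelled by group (blue Dmp1Cre, red Dmp1Cre.Efnb2f/f) and replicate. Phex and Vdr are raised in the same 2 libraries as the markers, Fgfr1, Pth1r and Fam20c in control 1 (deviations of 1.02, 1.19 and 1.15), and Fgf23 is lowest there (-0.61).

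Set against the mean log2 CPM of Dmp1, Mepe and Sost in the same library, no member passed the test between genotypes. The exact permutation p was under 0.05 for 0 of 9, and the lowest was 0.3429, for Pth1r, where the Dmp1Cre.Efnb2f/f-labelled libraries were lower, with a difference of -0.32 on the log2 scale. Relative to the markers, the spread of Vdr over the 7 libraries narrowed from an SD of 0.773 to 0.328 on the log2 scale. The spread also narrowed for Phex (0.597 to 0.432), Pth1r (0.615 to 0.387), Fgfr1 (0.557 to 0.402) and Fam20c (0.612 to 0.448). The spread of Fgf23 widened from 0.359 to 1.04, and that of Gnas from 0.219 to 0.766. Galnt3 (0.213 to 0.94) and Pthlh (0.731 to 0.798) widened as well.

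The genes most like each member over the 7 libraries, chosen from all genes tested by Pearson's r, were not other members. Phex was closest to Plekhh2 (r = 0.984), Slc24a2 (0.982) and Celf5 (0.978), and Vdr to Foxc2 (0.981), Zdhhc23 (0.979) and Syn2 (0.974). Fgfr1 was closest to Arpin (r = 0.997), Pth1r to C77080 (0.988), Fam20c to Irx6 (0.986) and Gnas to Smarca4 (0.998). Galnt3 was closest to Wdpcp (r = 0.992), Fgf23 to 1110032A03Rik (0.987) and Pthlh to Prss36 (0.968). The highest of 15074 correlations over 7 libraries is high by selection.

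The only cross with mice of both genotypes gave replicate 3 labelled Dmp1Cre.Efnb2f/f and control 3. Between them the log2 difference was 0.87 for Pth1r, 0.73 for Fgfr1, 0.62 for Phex, 0.60 for Vdr, 0.49 for Fam20c, 0.29 for Gnas and 1.50 for Pthlh, and -0.41 for Fgf23 and -0.16 for Galnt3. This is 1 library against 1, with no replicate check. Control 3 was the library with the lowest osteocyte markers.

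**Figure D3:**
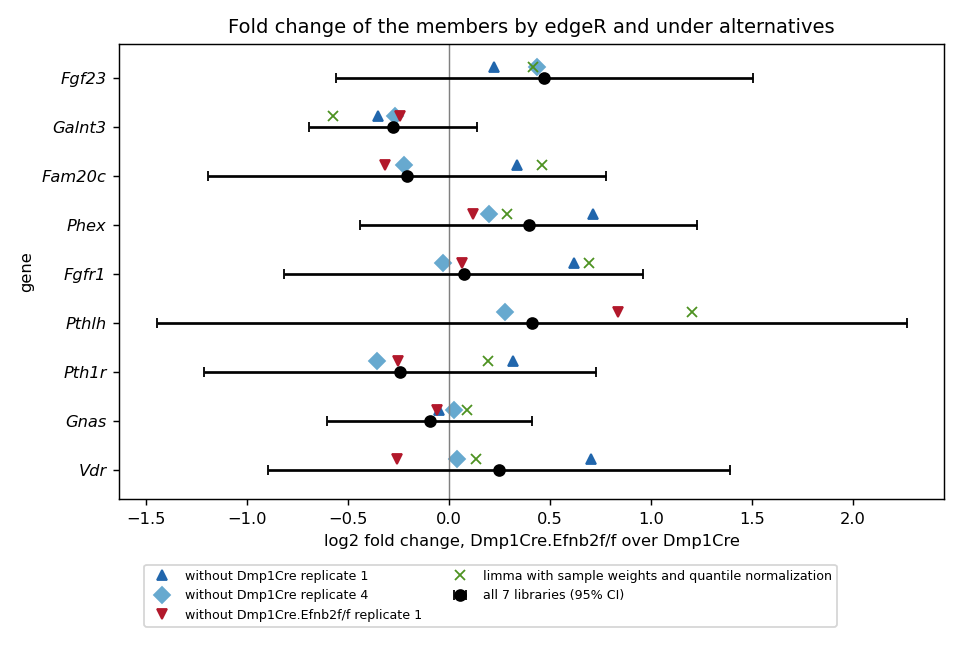
Log2 fold change of the 9 members, Dmp1Cre.Efnb2f/f-labelled over Dmp1Cre libraries, by edgeR with all 7 libraries (black points, bars are 95% confidence intervals) and under 4 alternatives (coloured symbols), where a gene that no longer passed the filter has no symbol. All 9 intervals include 0, and the points of Fam20c and Pth1r cross it when control 1 is left out.

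The other genes of the axis were read from 7 lists of 129 genes, of which 127 were counted and 111 tested. None passed the test: 0 of 111 had an adjusted p under 0.05 by edgeR, and 6 had an unadjusted p under 0.05, 5 higher and 1 lower (4.64% and 5.02% of all genes tested). The 2 groups did not overlap for 10 of 111 (11.3% of all genes tested), and the median log2 fold change was 0.081, beside 0.012 over all genes tested. Limma with quantile normalization and sample weights called 18 of the 111, 14 higher and 4 lower, where it called 15.1% of all genes. Among them were Fgfr3 (0.75, adjusted p = 0.0304), Fgfr4 (1.26, adjusted p = 0.0389), Rxra (0.60, adjusted p = 0.0179), Egr1 (1.04, adjusted p = 0.0232), Pde4b (0.70, adjusted p = 0.0263) and Nespas (-1.34, adjusted p = 0.0112).

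For the making of FGF23, 0 of 11 tested genes had an unadjusted p under 0.05 and the median log2 fold change was -0.034. The lowest p in this list belonged to Epor, the erythropoietin receptor, at 50.8 to 64.5 CPM in the Dmp1Cre.Efnb2f/f-labelled libraries and 68.8 to 139.9 CPM in controls (log2 fold change -0.58, adjusted p = 0.5163, edgeR, and -0.26 without control 4). The groups did not overlap, and the erythroid markers given above moved in the same direction, a part that was not tested.

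Among FGF receptors and their feedback genes, the median was 0.197 over 23 tested genes. Egr1, an immediate-early gene induced by FGF signalling, had 16.2 to 30.5 CPM in the Dmp1Cre.Efnb2f/f-labelled libraries and 7.19 to 19.3 CPM in controls (log2 fold change 0.87, unadjusted p = 0.0427, adjusted p = 0.51, edgeR), with overlapping groups, and 0.51 without replicate 1 labelled Dmp1Cre.Efnb2f/f. The other FGF receptors gave log2 fold changes of 0.37 for Fgfr2, 0.50 for Fgfr3 and 1.14 for Fgfr4, the last from 2 to 26 counts, none with an adjusted p under 0.05 in edgeR. Klb, the co-receptor of the metabolic FGFs, had 1 to 30 counts.

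In the list of the PTH receptor, the G proteins and cyclic AMP signalling, 35 genes were tested and the median was -0.064. Nespas, the RNA antisense to Gnas, stood at 1.95, 1.81 and 1.42 CPM in replicates 1, 2 and 3 labelled Dmp1Cre.Efnb2f/f and at 2.44, 3.65, 6.68 and 3.05 CPM in controls 1, 2, 3 and 4. The groups did not overlap, and the log2 fold change was -1.19 ± 0.38 (SE; unadjusted p = 0.0128, adjusted p = 0.51, edgeR). Of its exon bases, 38.5% are shared with 3 genes on the other strand, Gnas among them, and reads there can be assigned to Nespas only if counting used strand, which is not stated. Pde4b, a phosphodiesterase that breaks down cyclic AMP, had a log2 fold change of 0.64 (unadjusted p = 0.0408, adjusted p = 0.51, edgeR).

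The list of PTH-responsive genes of bone had the largest median of the 7 lists. All 13 tested genes had a log2 fold change above 0, beside 51.3% of all genes tested, with a median of 0.587, and 0 of 13 had an adjusted p under 0.05. The list was not split by whether PTH raises or lowers a gene, so the shared sign does not show a response to PTH. It was also chosen with earlier results of these data known, so the shared sign is not independent evidence. Nr4a2, an orphan nuclear receptor induced early by cyclic AMP, stood at 9.62, 3.62 and 4.38 CPM in replicates 1, 2 and 3 labelled Dmp1Cre.Efnb2f/f and at 2.75, 2.06, 2.64 and 2.61 CPM in controls 1, 2, 3 and 4. The groups did not overlap and replicate 1 labelled Dmp1Cre.Efnb2f/f was far above the rest (log2 fold change 1.22 ± 0.35 SE, unadjusted p = 0.00753, adjusted p = 0.51, edgeR). Igf1, a growth factor that PTH raises in bone, stood at 53.1, 39.1 and 56.8 CPM against 24.7, 37.6, 31.5 and 37.4 CPM, also without overlap (log2 fold change 0.60, unadjusted p = 0.0187, adjusted p = 0.51, edgeR). Nr4a3, a relative of Nr4a2, had 8 to 69 counts and overlapping groups (log2 fold change 1.19, unadjusted p = 0.0399, edgeR). Without replicate 1 labelled Dmp1Cre.Efnb2f/f, Nr4a2 was at 0.67 and Nr4a3 at 0.54 on this scale, and with the parental cross as a block Nr4a3 was at 0.018. Only 1 cross held both genotypes, so the value with this block compares 1 library of each.

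Without replicate 1 labelled Dmp1Cre.Efnb2f/f the median of the PTH-responsive list was 0.223, with 12 of 13 genes above 0, and under the other alternatives that tested 13 genes between 10 and 13 were above 0. Pth1r and Gnas, through which these genes respond to PTH, had log2 fold changes of -0.24 and -0.09 in the same libraries. Several genes of the list are also expressed outside bone cells, skeletal muscle included, and the part of the higher muscle markers in the list was not tested.

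For vitamin D, the genes of metabolism and the receptor partners had a median of 0.068 over 14 tested genes and 0 with an unadjusted p under 0.05. Cyp27b1, the enzyme that makes active vitamin D, had 3 to 9 counts per library and did not pass the filter. Rxra, a partner of Vdr, had a log2 fold change of 0.09 (adjusted p = 0.868, edgeR; the limma value is given above) and Rxrg, another, one of 0.69 (adjusted p = 0.517, edgeR). The 9 tested genes of the vitamin D target list had a median of 0.118, 5 above and 4 below 0. Whether each is a target of the receptor in mouse bone was not tested, and the list was not split by the direction of response. S100g, the small calcium-binding protein that vitamin D induces in the gut, had 5 to 17 counts and a log2 fold change of 0.72 (adjusted p = 0.517, edgeR), and Camp, an antimicrobial peptide of granulocytes, -0.51 (adjusted p = 0.517, edgeR). The granulocyte markers, a list that also holds Camp, moved in the same direction.

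Of the genes for phosphate and calcium transport and sensing, 6 of 9 were tested and 0 had an unadjusted p under 0.05. Casr, the calcium-sensing receptor, had 21 to 129 counts and a log2 fold change of 1.00 ± 0.48 (SE; adjusted p = 0.516, edgeR), with overlapping groups. Xpr1, the phosphate exporter, had one of 0.18 (adjusted p = 0.644, edgeR).

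**Figure D4:**
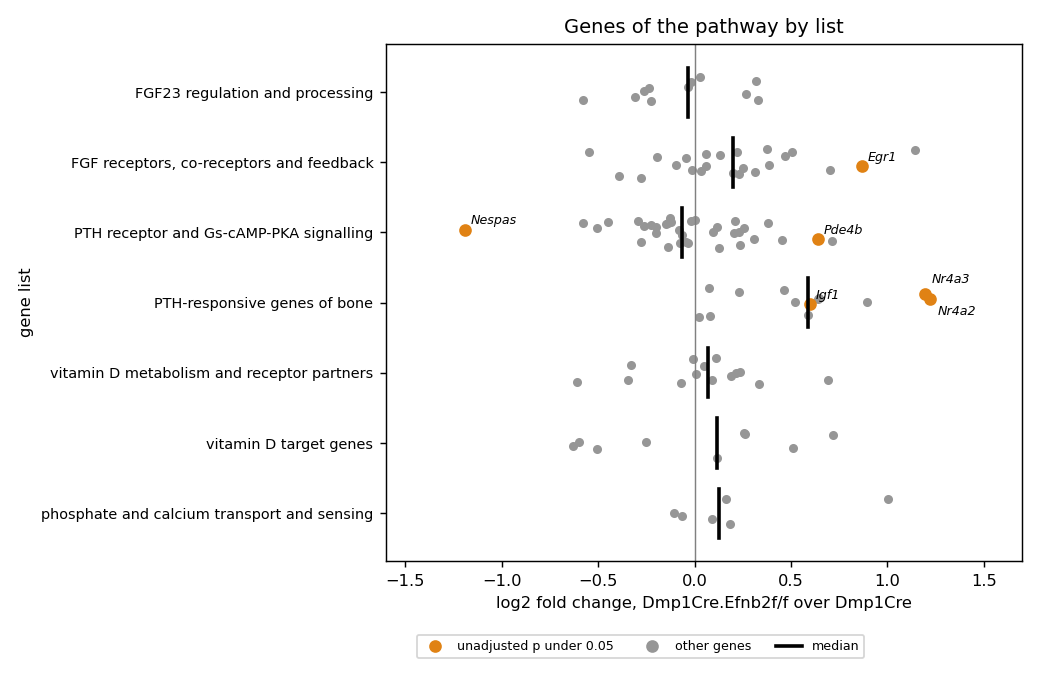
Log2 fold change, Dmp1Cre.Efnb2f/f-labelled over Dmp1Cre libraries, of the 111 tested genes of the 7 lists, with 1 point per gene, the median of each list as a black line and the 6 genes with an unadjusted p under 0.05 in orange; vertical jitter has no meaning. The PTH-responsive list lies wholly above 0 with a median of 0.587, and no gene had an adjusted p under 0.05. The lists were chosen with earlier results of these data known.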

How the data were processed

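Libraries of femoral cortical bone, 3 labelled Dmp1Cre.Efnb2f/f and 4 Dmp1Cre, were analysed, grouped by the labels although whole-gene Efnb2 counts went against them. Rsubread was used by the authors for mapping to mm10 and featureCounts, with its inbuilt annotation, for counting; the counts were deposited raw, per gene and library (bcl2fastq 2.17.1.14, per the submitters' processing notes). The study's limma analysis also used the collection day, which the labels do not give. The strand setting and most versions are not given in the sources used here.

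Of 27179 genes, 16302 had at least 0.65 CPM in at least 3 libraries, and 1228 were left out by class (immunoglobulin and T-cell receptor segments, no symbol, predicted genes, pseudogenes, rRNA, Y and Xist), an approximation of the classes the study's methods name, leaving 15074. The main test was edgeR 4.0.16 (TMM, robust quasi-likelihood, Benjamini-Hochberg at 0.05) in R 4.3.3, tested on simulated data. Alternatives used DESeq2 1.42.0, limma 3.58.1, other scalings, filters and blocks, and left-out libraries. Log2 CPM of single genes used a prior of 0.5. Single values had two-sided exact permutation tests of mean CPM, unadjusted over 9 genes. Replicate numbers did not pair the libraries. The 10 members and the gene lists were chosen with earlier results of these data known; of each list, up to 4 genes of lowest p, co-receptors, partners and enzymes could be named. Positions and promoters are from RefSeq (GRCm38.p6), exon overlaps from GENCODE. Ankh and Adrbk1 were not found by symbol.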

Additional observations from a re-analysis of the deposited data

Results flagged for a closer look

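Of the levels of 31 genes in the 4 controls, 3 had a library set apart by Dixon's test, which chance alone gives in about 1 of 20 groups. Cyp24a1, 1 of the 31, had 0 counts in each control, so the test could not be applied to it. The gap of control 1 to its nearest neighbour was 0.874 of the range of Fgfr1 and 0.833 of that of Galnt3, high for Fgfr1 and low for Galnt3. For Epor, the erythropoietin receptor, control 4 was high, with a gap of 0.95 of the range, and the same library had the highest summed erythroid markers, 56470 CPM; the part of these markers was not tested. The groups of 3 were not examined.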

How the results depend on the processing

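Under 18 alternatives, the count of members with an adjusted p under 0.05 was 0 except in the limma pipeline of the study without the day (quantile normalization and sample weights, highest over lowest weight 43.6), which gave 2, Galnt3 (-0.58, adjusted p = 0.016) and Fgfr1 (0.69, adjusted p = 0.0189), and 18 genes of the lists, 14 higher and 4 lower. Controls 1 and 4 had the lowest weights there (0.193 and 0.167). That pipeline called 1145 genes higher and 1124 lower over all genes, DESeq2 24 and 48, limma-voom 0 and edgeR 0 (1457 at an unadjusted p under 0.05). Efnb2 passed the threshold in DESeq2 (0.94, adjusted p = 0.034) and in the limma pipeline (0.76, adjusted p = 0.016). Leaving out each library in turn gave 0 members called and 0 genes of the lists, and for Efnb2 0.77 to 1.08.

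Signs turned, by log2 fold change, in the limma pipeline for Fam20c (0.46), Pth1r (0.19) and Gnas (0.088), with library size only for Gnas (0.0047), and with the parental cross as a block for Fgf23 (-0.69), Fam20c (0.50), Pth1r (0.88), Gnas (0.29), Pde4b (-0.39), Dhcr7 (0.38), Casr (-0.078) and Klb (-0.62). Only 1 cross held both genotypes. With this block the fold change therefore comes from replicate 3 labelled Dmp1Cre.Efnb2f/f against control 3, 1 library against 1. Leaving out 1 library at a time gave -0.42 to 0.33 for Fam20c and -0.48 to 0.31 for Pth1r (above 0 without control 1), -0.10 to 0.62 for Fgfr1 (below 0 without control 2, 3 or 4), -0.26 to 0.70 for Vdr (below 0 without replicate 1 labelled Dmp1Cre.Efnb2f/f), -0.18 to 0.024 for Gnas (above 0 without control 4) and -0.046 to 0.23 for Rxra (below 0 without control 2). Without controls 1 and 4, an alternative chosen after seeing the data, Fam20c was 0.67, Pth1r 0.40 and Gnas 0.17. The causes were not tested. With the replicate number as a block (replicates 1 to 3), Fam20c was 0.049 and Gnas 0.034, 0 members and 0 genes of the lists were called, and 1 gene was called over all genes; deviations of same-numbered libraries correlated at -0.146, 0.0697 and -0.437. At 5 to 21 counts for Fgf23, 3 to 35 for Pthlh and 0 to 4 for Cyp24a1, depth limits what can be shown; Fgf23 and Pthlh were not tested where fewer than 3 libraries reached the filter.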
